A study of Mus musculus with 12 samples.

Results

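Peaks deep inside gene bodies are calls of N6-methyladenosine (m6A) enrichment whose midpoint lies within an annotated gene and at least 5000 nt from both of its ends. They were chosen by position alone, from the gene start and end that the authors' deposited tables list beside each peak. In total 7272 of 31518 distinct table peaks met this rule, against 19038 peaks with a gene that did not and 5208 with no gene. J1 embryonic stem cells of the mouse, kept on feeder layers of irradiated embryonic fibroblasts, were infected with lentivirus carrying an shRNA. The shRNA was directed against Mettl14 or against Mettl3, or was a scramble control, and puromycin selected the stable lines, so that all 3 groups carried virus and drug selection. Fragmented poly(A) RNA was pulled down with an anti-m6A antibody in 6 of the 12 libraries, 2 in each of 3 groups, and the other 6 are inputs that have no columns of their own and were not analysed here. Each of the 4 tables compares 1 knockdown IP with 1 scramble IP, and the tables form 2 sets that share no library, while within a set the Mettl14 and Mettl3 tables use the same scramble library. Per table there were 2050, 1660, 1984 and 1578 deep peaks, in the order Mettl14 set 1, Mettl14 set 2, Mettl3 set 1 and Mettl3 set 2, which lay in 1469, 1266, 1441 and 1208 genes. The labels do not say whether the sets are separate cultures, and nothing in them gives the degree of knockdown. No level of Mettl3 or Mettl14 RNA is in the tables, where neither gene has a peak, so their depletion could not be read from these data.

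m6A is laid down on mRNA by a writer complex in which METTL3 carries the catalytic site and METTL14 holds the RNA, with WTAP, VIRMA and other subunits that place the complex. It is written at adenosines within DRACH sequences (D stands for A, G or T, R for A or G and H for A, C or T), and GGACT is the form best known for methylation. In mammalian mRNA the mark is known to gather near stop codons, in the 3' UTR and in long internal exons, whereas most internal exons are short and lie between closely spaced splice sites. Reader proteins of the YTH family bind the methylated base, and in embryonic stem cells the mark is known for speeding the decay of transcripts, among them those of developmental regulators.

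The stretches below show what such sites look like in coding sequence. Each is 101 nt of a long internal coding exon, centred on the GGACT nearest to the peak summit, with GGACT in capitals, read from the GENCODE M21 transcripts (GRCm38, the same build as mm10) in the direction of the mRNA. They were chosen because the named results below turn on them. Rin3 had lower enrichment than scramble in all 4 tables, and Tmem132d had higher enrichment in all 4. Ankrd11 and Ahdc1 hold peaks among the widest. Lrriq4 had one of the largest Mettl3 increases, Lpar1 had a peak in the scramble libraries alone and Bcl11a in the knockdown libraries alone. The windows lie at chr12:102369418-102369518 (plus strand, Rin3), chr5:128268840-128268940 (minus, Tmem132d), chr8:122892125-122892225 (minus, Ankrd11), chr4:133064359-133064459 (plus, Ahdc1), chr3:30650772-30650872 (plus, Lrriq4), chr4:58487058-58487158 (minus, Lpar1) and chr11:24164143-24164243 (plus, Bcl11a).
Rin3: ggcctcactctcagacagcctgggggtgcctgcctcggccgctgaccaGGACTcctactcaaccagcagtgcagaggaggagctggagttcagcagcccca
Tmem132d: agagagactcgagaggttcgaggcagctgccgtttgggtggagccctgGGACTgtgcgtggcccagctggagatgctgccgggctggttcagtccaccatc
Ankrd11: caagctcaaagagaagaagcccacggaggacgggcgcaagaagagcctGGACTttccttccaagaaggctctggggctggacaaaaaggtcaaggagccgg
Ahdc1: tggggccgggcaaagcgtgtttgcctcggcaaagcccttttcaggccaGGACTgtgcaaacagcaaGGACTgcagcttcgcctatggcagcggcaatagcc
Lrriq4: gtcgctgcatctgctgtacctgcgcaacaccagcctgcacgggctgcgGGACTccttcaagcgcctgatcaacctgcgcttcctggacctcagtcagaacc
Lpar1: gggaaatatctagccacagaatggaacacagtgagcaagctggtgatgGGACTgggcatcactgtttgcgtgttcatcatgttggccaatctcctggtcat
Bcl11a: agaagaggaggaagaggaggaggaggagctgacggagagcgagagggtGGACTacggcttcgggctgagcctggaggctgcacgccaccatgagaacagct
These exons hold 5 GGACT matches in Rin3, 1 in Tmem132d, 8 in Ankrd11, 12 in Ahdc1, 1 in Lrriq4, 3 in Lpar1 and 2 in Bcl11a. The match lies 8 nt from the summit of a Mettl14 knockdown peak of set 1 in Lrriq4, 60 nt in Tmem132d and 85 nt in Ahdc1, whose window holds a further match. To the other side, the signed distance was -12 nt in Rin3, -15 nt in Bcl11a and -658 nt in Ankrd11. In Lpar1 it was -77 nt from a summit of scramble set 1. The windows of Tmem132d, Ahdc1, Lpar1 and Ankrd11 thus do not reach the summit. A match is a string of letters in the exon and no measured site.

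Deep peaks made up 26.5, 31.6, 26.4 and 27.6% of the peaks with a gene in the Mettl14 knockdown libraries of set 1 and set 2 and the Mettl3 knockdown libraries of set 1 and set 2, against 27.0 and 27.8% in the scramble libraries of set 1 and set 2. All values given below as 4 against 2 follow that order. The mean share was 28.0 ± 2.45% in knockdown and 27.4 ± 0.567% in scramble libraries (SD, n = 4 and 2), a difference smaller than the spread between libraries (exact permutation test over libraries, two-sided, p = 0.933, where 15 arrangements allow no p below 0.0667). The number of deep peaks itself was 1326, 1197, 1208 and 1101 against 1811 and 1287, so each knockdown library had fewer than the scramble library of its set, as was also the case for all listed peaks (5717, 4367, 5087 and 4577 against 7886 and 5438). The tables give no read total for a library, and the part of depth in these counts was not tested. In bulk libraries, fewer marked cells and less mark per cell cannot be told apart.

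The median deep peak was 553.5, 654, 577 and 623 nt wide in the knockdown libraries, against 608 and 729 nt in the scramble libraries. Within each set the knockdown libraries were the narrower, but the mean of 602 ± 45.2 nt in knockdown and 668.5 ± 85.6 nt in scramble libraries did not pass the test (exact permutation test over libraries, two-sided, p = 0.267). Enrichment, the authors' ratio of IP to its own input within a peak, had medians of 14.1, 11.5, 15.6 and 11.3 against 15.1 and 14.8. Its means were 13.1 ± 2.10 and 15.0 ± 0.240 (SD, n = 4 and 2, exact permutation test, two-sided, p = 0.267), and the knockdown libraries of set 2 lay below both scramble libraries while 1 of those of set 1 lay above them. Tags per deep peak, the reads counted inside it, had medians of 66, 88, 74 and 79 in the knockdown libraries, and of 51 and 68 over the 926 and 597 scramble peaks for which the tables give tags, which are those listed as lost in some table.

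Width and enrichment ran against each other. Narrow deep peaks, of 300 nt or less, had median enrichments of 52.2, 65.8, 90.7 and 60.0 in knockdown libraries and 56.5 and 128.6 in scramble libraries, on medians of only 14 to 19 tags. Wide ones, of 1000 nt or more, had 9.12, 7.41, 9.52 and 7.14 against 9.07 and 9.23, on 179 to 267 tags. A high enrichment in a narrow peak is thus a ratio over few tags. Narrow peaks were 19.1, 13.8, 14.5 and 15.2% of the deep peaks against 14.3 and 7.46%, and wide ones 16.7, 24.3, 18 and 23.2% against 19.2 and 28.0%. Peaks just inside the distance limit, with 5000 to 6000 nt to the nearer gene end, had a median width of 608.5 nt and a median enrichment of 13.6 over the 6 libraries (926 peaks), and those just outside it, with 4000 to 5000 nt, 620 nt and 13.8 (1437 peaks).

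Most deep peaks had their midpoint in a long internal exon, defined as an exon of 400 nt or more that is neither first nor last in its transcript. This held for 63.3, 65.4, 63.8 and 64.0% of deep peaks in the knockdown libraries and for 57.3 and 61.2% in the scramble libraries. Of the other peaks with a gene, 9.87 to 10.5% against 9.74 and 10.8% lay in such exons, and 67.9 to 72.7% lay in the last exon, where only 17.1 to 19.0% of deep peaks lay. Part of that contrast is set by the distance rule, which removes last exons of ordinary length that end the gene. Outside every exon of the GENCODE M21 basic annotation on the peak's strand lay 7.92, 8.19, 8.20 and 8.81% of deep peaks in knockdown libraries against 12.8 and 10.7% in scramble libraries. Exons of transcripts left out of the basic annotation and of the opposite strand were not searched. Calls in no exon were narrower (medians 271 to 346 nt against 367 and 523.5 nt) and more enriched (29.8 to 41.5 against 32.2 and 32.5) than those in long internal exons (617 to 721 nt against 700.5 and 788.5 nt, and 9.64 to 13.2 against 12.4 and 12.5). Short internal exons held 1.90 to 3.24% against 4.25 and 3.57%, and 4.51 to 5.71% against 6.07 and 5.67% lay in an exon of another gene on the same strand.

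**Figure D1:**
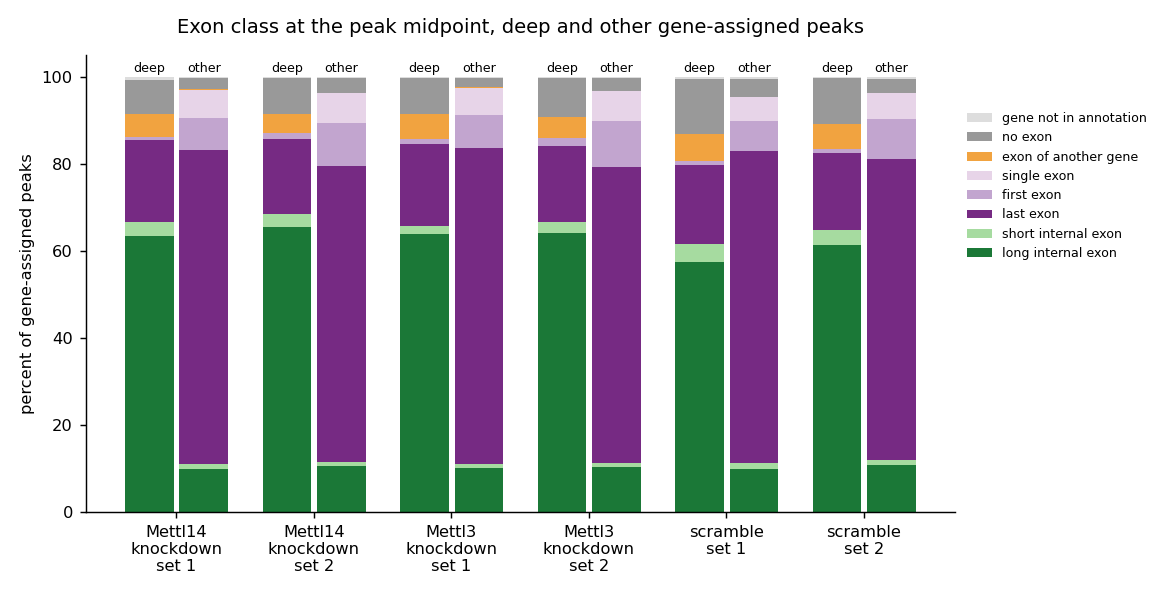
Percent of peaks with a gene (y axis) by the exon class at the peak midpoint, with a pair of bars per IP library, deep peaks at the left of each pair and other peaks at the right. Long internal exons hold 57.3 to 65.4% of deep peaks and 9.74 to 10.8% of the others, whose largest class is the last exon.

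Within these exons the calls lay almost wholly in coding sequence. Their midpoints were coding in 98.0, 97.7, 97.4 and 97.6% of cases in knockdown libraries and in 97.9 and 97.7% in scramble libraries. The exons had median lengths of 1069, 1108, 1067 and 1099 nt against 983 and 1000 nt, and the longest carrying a peak measured 17106 nt. A peak covered a median 60.9, 73.1, 65.5 and 71.3% of its exon in knockdown libraries against 79.2 and 88.8% in scramble libraries, so within each set the scramble calls filled more of the exon. Of 3 equal parts of the exon, the central one held 60.3, 63.9, 63.4 and 62.8% of midpoints against 67.5 and 72.6%. Across peaks, width and exon length had a Spearman rho of 0.33, 0.42, 0.36 and 0.39 in knockdown libraries and 0.43 and 0.53 in scramble libraries, a description over peaks that share a library, exons and calling threshold.

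Seen from the exons, the share that carried a deep peak was far higher in longer ones. Counted over the internal exons of genes with any listed peak that lie at least 5000 nt from both gene ends, both scramble libraries had a deep peak in 7 of 22746 exons of 100 to below 200 nt (0.031%) and in 16 of 5051 exons of 200 to below 400 nt (0.317%). The share was 18.6% of 849 exons of 400 to below 700 nt, 44.6% of 399 exons of 700 to below 1000 nt, 55.3% of 423 exons of 1000 to below 2000 nt and 52.9% of 189 exons of 2000 nt or more. None of 12255 exons under 100 nt had one. A peak in all 6 libraries was found in 6.95, 27.3, 38.1 and 39.2% of the exons in those 4 classes from 400 nt upward. In the class of 1000 to below 2000 nt the libraries had 62.4, 59.3, 57.2 and 54.8% for the knockdowns against 71.6 and 58.4% for scramble, and in that of 400 to below 700 nt 20.8, 18.5, 20.1 and 15.7% against 32.4 and 23.0%. Every library showed the step between 200 and 700 nt. A shorter exon offers fewer bases in which a midpoint can fall.

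**Figure D2:**
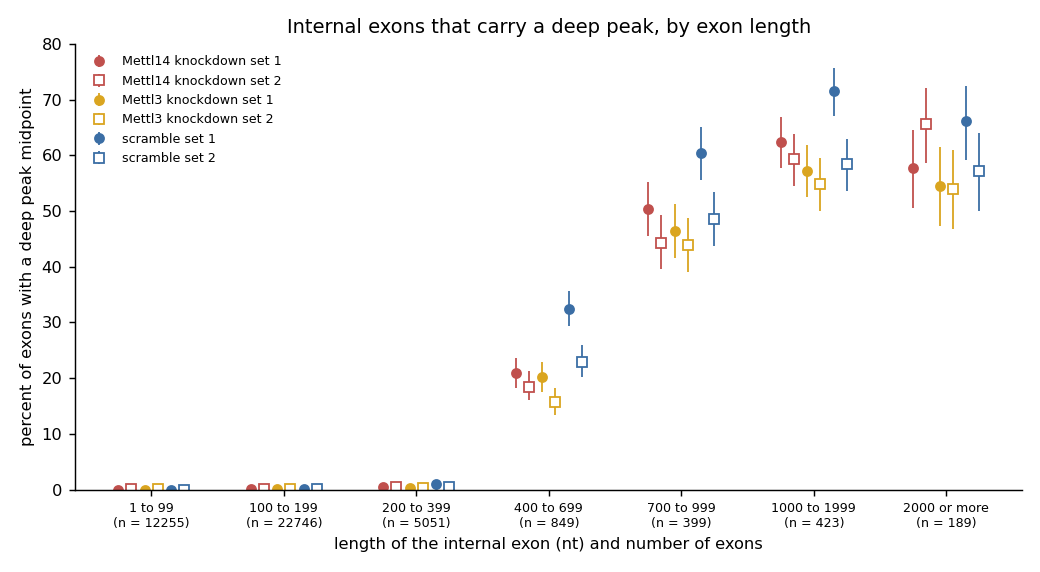
Percent of internal exons that carry the midpoint of a deep peak (y axis) in 7 classes of exon length (x axis, nt, with the number of exons), one point per IP library with its 95% Wilson interval, which covers counting error only. All 6 libraries stay near 0 below 400 nt and lie between 54.0 and 71.6% from 1000 nt upward.

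Most deep peaks in last exons belonged to unusually long ones. A midpoint counts as in a last exon if that exon ends a transcript of the gene and no other transcript has an internal exon there. Of the deep peaks counted in long internal exons, 48, 40, 47 and 37 against 49 and 41 also lay in the last or only exon of another transcript. The last exons of deep peaks measured a median 5869, 5982, 5765 and 5991 nt in knockdown libraries and 5703 and 5864.5 nt in scramble libraries, against 2205 to 2515 nt for the last exons of the other peaks, which the distance rule largely fixes. The midpoints lay at a median 501.5, 488, 486.5 and 505 nt from its 5' end against 437 and 484 nt, and at 400.5 to 439.5 nt for the other peaks. The distance rule limits this position too where the end of the last exon is an end of the gene. That cannot hold for all of them. Only 62.3, 65.9, 61.5 and 67.7% against 59.9 and 62.8% of the last exons of deep peaks were 5000 nt or longer. Peaks overlapping the last coding base made up 48.0, 50.2, 50.0 and 54.2% against 54.1 and 59.7%. Lifr, the receptor of leukemia inhibitory factor, in whose presence the cells were grown, is an example: its peak in the last exon (6944 nt) had enrichments of 20.9, 11.0, 18.3 and 11.0 in knockdown libraries and 16.2 and 6.73 in scramble libraries. Tet3, a dioxygenase that oxidises methylcytosine in DNA, had 29.4, 13.5, 28.7 and 17.9 against 36.1 and 23.4 in a last exon of 7453 nt. Enrichments given for single regions are before the authors' scaling constants, which the tables apply to the knockdown values and which lower them most in set 2. Each Lifr value in knockdown was above that of the scramble library of its set, with log2 changes after the constant of 0.22, 0.34, 0.18 and -0.0031. Each Tet3 value in knockdown was below that of its set, but the scramble call of set 1 was split, and against its other piece the log2 change of Mettl14 set 1 was 0.41. Values of the 2 sets lie at different heights, so groups that overlap over both sets may still be apart within each.

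Merging the deep peaks of the 6 libraries wherever they overlapped by at least 1 nt on 1 strand gave 2408 regions in 1766 genes. Of these, 583 (24.2%), in 533 genes, had a deep peak in all 6 libraries and 824 (34.2%) in 1 library only. Regions in more libraries were wider, less enriched and more often in a long internal exon. Median width was 305, 429.5, 521, 520, 641 and 809 nt for regions in 1, 2, 3, 4, 5 and 6 libraries, and median enrichment was 29.7, 20.6, 14.6, 15.4, 12.2 and 12.2. Long internal exons held 34.7, 49.9, 59.6, 68.9, 67.7 and 69.1% of them, and the share outside every exon was 29.1, 18.2, 11.5, 9.18, 5.47 and 3.26%.

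**Figure D3:**
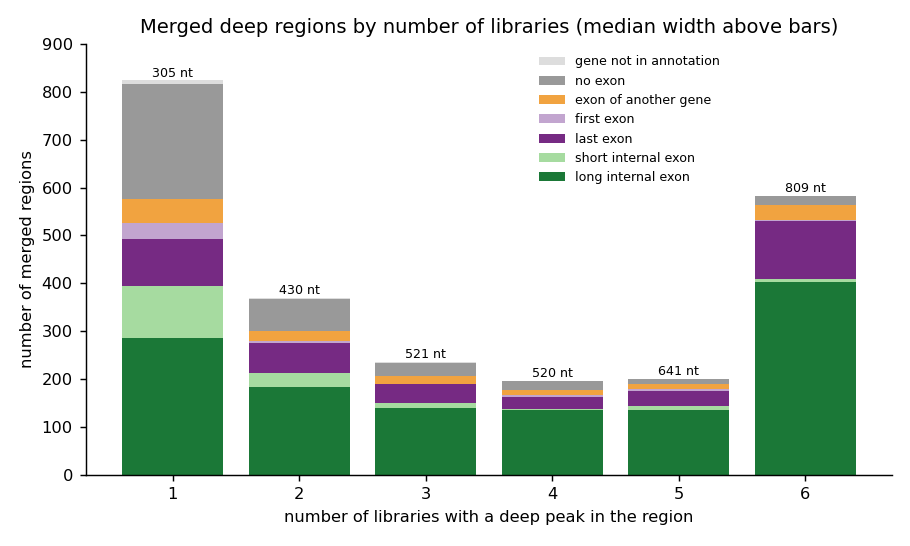
Number of merged deep regions (y axis) by the number of IP libraries with a deep peak there (x axis), coloured by exon class, with the median width above each bar. Regions in 1 library are the most numerous (824) and the narrowest (305 nt), and those in all 6 (583) the widest (809 nt).

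The 8 widest regions all lay in coding internal exons, of 4390 to 8020 nt. Spen, a repressor of transcription that takes part in X inactivation, had a region of its exon of 8020 nt (chr4:141471408-141479561) with calls of 5822, 5184, 5626 and 5619 nt in knockdown libraries and 7808 and 2843 nt in scramble libraries. Its enrichment was 5.89, 5.66, 6.59 and 8.33 against 9.52 and 9.45, on 973 to 1129 tags in the knockdown libraries. In scramble set 2 the call was split, and another piece of it had 5.71, so the groups overlapped there. Ankrd11, a chromatin regulator, was covered nearly end to end in its exon of 6518 nt (chr8:122889689-122896320) by calls of 6459, 6511, 6441 and 6447 nt against 6626 and 6590 nt. There the enrichment was 5.17, 4.05, 5.29 and 4.25 against 3.92 and 3.94, on 1685 to 2105 tags in the knockdown libraries. The knockdown values were above both scramble values, but after the authors' constant the log2 changes were 0.26, -0.32, 0.44 and -0.61, so the direction turned in set 2. Ahdc1, an AT-hook protein whose exon sequence is shown above, had 12.7, 7.98, 14.0 and 10.2 against 10.4 and 7.38, above its own scramble library in both sets, where the constant turned the log2 changes of set 2 to -0.25 and -0.24. Rai1 and Tcf20, a related pair of nuclear proteins, had exons of 5527 and 5772 nt. Rai1 had 17.1, 8.99, 13.7 and 9.07 against 11.0 and 10.9, with overlapping groups. Tcf20 had 5.67, 4.90, 6.59 and 5.75 against 4.62 and 4.34, with all 4 knockdown values above both scramble values. In scramble set 1 its call was split, and another piece had 5.62, so the groups overlapped there. After the constant its log2 changes were 0.15, -0.19, 0.23 and -0.31. BC018507 (Ice1, a subunit of the complex that starts small nuclear RNA transcription), Prdm2 and Bod1l, with exons of 4698, 4390 and 5953 nt, complete the 8. Calls in Prdm2 (1337 to 4001 nt against 2971 and 3574 nt) and Bod1l (836 to 2802 nt against 2026 and 3688 nt) took up only part of the exon.

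The 10 regions of all 6 libraries with the highest enrichment had calls of 106 to 665 nt on 7 to 48 tags in knockdown libraries, against calls of 198 to 900 nt in scramble libraries. Scara5, a scavenger receptor that takes up ferritin, reached 301, 154, 234 and 160 in knockdown libraries and 214 and 507 in scramble libraries in a coding exon of 675 nt (chr14:65730532-65731168), on 10 to 14 tags in the knockdown libraries. Its calls were split in scramble set 1 and in the Mettl3 knockdown libraries. The other scramble piece, which the pairs of set 1 used, had 79.8. After the authors' constant the log2 changes were 1.77, -2.08, 1.92 and -2.06, so the 2 sets went opposite ways. Nlrp4f, of a gene family active in oocytes and early embryos, had 134, 182, 269 and 160 against 324 and 136 over calls of 106 to 169 nt against 247 and 198 nt (chr13:65194532-65194827). For both genes the groups overlapped. Lhfpl4, a partner of inhibitory receptors at synapses, had 202, 156, 168 and 41.6 against 162 and 107 in a short internal exon of 237 nt, 1 of only 7 short exons with a region in all 6 libraries. Fbxo32, Megf9 and Prdm11 had their regions in last exons of 5677, 6467 and 10711 nt, Fam78b and Tmem132d in long internal exons, and Ndufs4 and Pcdhga11 outside the exons of their own gene. Sema3e, a secreted guidance cue, shows that a narrow region can also be well covered: 188 to 211 nt against 189 and 213 nt over an exon of 140 nt, with 52 to 70 tags in knockdown libraries and enrichments of 8.84, 5.81, 5.25 and 5.21 against 5.65 and 9.09.

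Genes with several deep regions in both scramble libraries were of 2 kinds. Setd1b, a methyltransferase of histone H3 lysine 4, had 5 such regions, each in a different long internal exon of the gene, 4 of them in all 6 libraries. In its exon of 1209 nt the enrichments were 11.9, 11.0, 14.8 and 9.91 in knockdown libraries against 16.9 and 10.3 in scramble libraries, and in that of 1260 nt 6.73, 7.28, 9.83 and 8.13 against 9.32 and 9.07. Mll2 (Kmt2d), of the same enzyme family, had 4 regions in long internal exons, 3 in all 6 libraries. Its exon of 2952 nt had 8.56, 5.41, 8.85 and 8.93 against 6.51 and 7.67, with knockdown and scramble values overlapping. Zfp704 had 4 regions along a 3' UTR exon of 11879 nt, none in all 6 libraries. In the second kind, the regions lay in no exon of the listed gene. Pcdhga11 (9 regions) and Gm20388 (7 regions, a gene model of 4434.88 kb) have long spans that enclose other genes, and the 4 regions of Ahnak2 lay outside its annotated exons while all were present in the 6 libraries. In 29 of the 1755 genes found in M21 the deposited span was over 1.5 times that of M21. The effect on membership was small, since 97.1% of the deep peaks of the libraries were deep by the M21 span too and 1.51% had a midpoint outside the M21 gene.

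Deep regions in all 6 libraries were counted over lists of genes, each beside the 533 of 6097 genes with any listed peak (8.74%) that have such a region. Of the chromatin regulators 19 of 53 had one (35.8%), and of genome maintenance and mitosis genes 11 of 34 (32.4%). Both lists were drawn up with earlier results known. The background counts genes of any span, also those too short to hold a deep peak. Over peaks, the median gene span was 67.0 to 74.2 kb for deep peaks and 19.7 to 20.9 kb for the other peaks with a gene. The part of gene span and exon length in the shares of these and the following lists was not tested. Crebbp, a histone acetyltransferase, had 12.3, 7.21, 12.7 and 9.24 in knockdown libraries against 14.9 and 12.5 in scramble libraries. Wbp7 (Kmt2b) had 8.52, 7.86, 9.93 and 8.58 against 8.94 and 6.80, and Kdm6b, a histone demethylase, 11.8, 13.9, 22.4 and 15.0 against 15.4 and 12.4. Slx4, a scaffold of DNA repair nucleases, had 14.4, 11.8, 14.3 and 14.0 against 15.1 and 9.68 in an exon of 2186 nt. Fancm, a translocase at stalled forks, had 19.1, 8.81, 13.3 and 9.32 against 12.2 and 7.43, and Blm, a RecQ helicase, 22.7, 10.6, 13.9 and 9.14 against 8.80 and 8.39. In Blm all 4 knockdown values were above both scramble values, with log2 changes after the constant of 1.22, -0.03, 0.67 and -0.59, so the direction turned in set 2. In the other 5 the groups overlapped over both sets. Within each set, Crebbp was below its scramble library in all 4 tables (-0.42, -1.16, -0.22 and -1.15 after the constant), and Fancm was above it but with -0.12 and -0.39 in set 2 after the constant.

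Of the m6A machinery, 6 of 12 listed genes had a region in all 6 libraries (50.0%). The readers Ythdf1, Ythdf2 and Ythdf3 share an exon layout in which the fourth of 5 exons is long and internal, and all 3 carried their region there. Ythdf1 had enrichments of 4.41, 4.49, 4.63 and 4.73 in knockdown libraries and 3.94 and 5.10 in scramble libraries in an exon of 1521 nt. Ythdf2 had 8.47, 4.37, 7.75 and 6.52 against 7.03 and 7.92, and Ythdf3 15.2, 7.68, 7.71 and 7.96 against 10.5 and 7.64. The groups overlapped in all 3. The writer subunit 1110037F02Rik (Virma) had 16.1, 9.12, 26.0 and 11.2 against 17.3 and 23.4 in an exon of 1141 nt. Ythdc1, the nuclear reader, had its region outside its annotated exons, with 29.9, 26.7, 38.2 and 24.3 against 36.1 and 45.3. Wtap was the remaining one, in the 3' UTR.

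Pluripotency genes had 2 of 14 (14.3%), Lifr and Sall4, so the share was above that over all listed genes by a single gene. Sall4, a zinc finger factor of the pluripotency network, was covered across its exon of 2367 nt (chr2:168754379-168756892) by calls of 2426, 2487, 2487 and 2489 nt against 2420 and 2514 nt, with enrichments of 5.08, 3.80, 5.18 and 4.17 against 4.22 and 3.34. These were above the scramble library in each set, and after the constant the log2 changes were 0.13, -0.18, 0.30 and -0.40. Developmental signalling genes had 4 of 39 (10.3%): Egfr, Fgfr2, Igf1r and Maml1. Maml1, a Notch coactivator, had 15.5, 6.72, 10.3 and 6.86 against 14.3 and 8.94, and Igf1r 13.0, 13.8, 9.89 and 8.0 against 17.3 and 19.2, where every knockdown value was below both scramble values, with log2 changes after the constant of -0.56, -0.84, -0.80 and -1.98. The 2 regions of Fgfr2 lie in exons of another gene. Markers of feeder fibroblasts had none of 7 listed genes in all 6 libraries. Tnc, a matrix protein, was the only one of them with any deep region, in 3 knockdown libraries (59.7 and 35.4 with Mettl14 and 40.0 with Mettl3 in set 2) and in no scramble library. The part of feeder RNA in it was not tested.

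Each table sorts its peaks into lost (listed in scramble alone), new (in knockdown alone) and shared. Of the deep scramble peaks, 724 of 1811 (40.0%, 95% Wilson interval 37.7 to 42.3) were lost with Mettl14 knockdown in set 1, where 43.3% of all listed scramble peaks were. In set 2 it was 463 of 1287 (36.0%, 33.4 to 38.6) with a background of 45.9%. With Mettl3 knockdown 776 of 1811 were lost in set 1 (42.8%, 40.6 to 45.1, background 45.4%) and 477 of 1287 in set 2 (37.1%, 34.5 to 39.7, background 41.9%). The other peaks with a gene had 38.6, 43.2, 40.3 and 36.5%, so the deep share lay below theirs in Mettl14 set 2 and slightly above it in the other 3 tables. The 2 tables of a set share their scramble library, the intervals cover counting error only, and no test was made of these shares, since each table sets 1 knockdown library against 1 scramble library and no table sets 2 scramble libraries against each other.

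New peaks made up 196 of 1326 deep knockdown peaks with Mettl14 in set 1 (14.8%) and 359 of 1197 in set 2 (30.0%), where the shares over all listed knockdown peaks were 18.9% and 31.0%. With Mettl3 it was 143 of 1208 (11.8%) and 264 of 1101 (24.0%), with 12.8% and 28.1% over all listed peaks, which include those with no gene. The other peaks with a gene had 15.4, 24.9, 10.5 and 23.5% in the 4 tables. The deep share thus lay below theirs in Mettl14 set 1 and above it in the remaining tables. The sets differed more than the knockdowns did. Among deep peaks the new share in narrow calls was 44.3, 72.1, 34.3 and 64.7% in the 4 tables, and in wide calls 5.41, 16.8, 6.45 and 10.6%. The other peaks with a gene had 41.8, 70.9, 36.3 and 63.0% in narrow calls and 2.99, 9.68, 1.71 and 11.2% in wide ones, and the wide share of deep peaks was higher in all tables but Mettl3 set 2.

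How wide a deep scramble peak was, and what it lay on, went along with its fate. Narrow peaks were lost in 74.1, 75, 77.2 and 76.0% of cases in the tables for Mettl14 set 1, Mettl14 set 2, Mettl3 set 1 and Mettl3 set 2, those of middle width in 40.4, 41.4, 42.7 and 42.3%, and wide ones in 12.9, 13.0, 17.8 and 14.7%. The other peaks with a gene showed the same order, with 68.9 to 76.8% for narrow and 12.2 to 21% for wide calls. By position, peaks in long internal exons were lost in 31.4, 28.8, 35.2 and 31.3% of cases and those in last exons in 34.7, 27.4, 38.0 and 28.8%. Peaks in no exon were lost in 69.3, 70.3, 68.8 and 67.4%, and those in short internal exons in 76.6, 76.1, 84.4 and 69.6%. In an exon of another gene it was 48.2, 43.8, 47.3 and 41.1%. Calls in no exon were also the narrower, as given above, and the parts of width and of position were not tested apart.

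**Figure D4:**
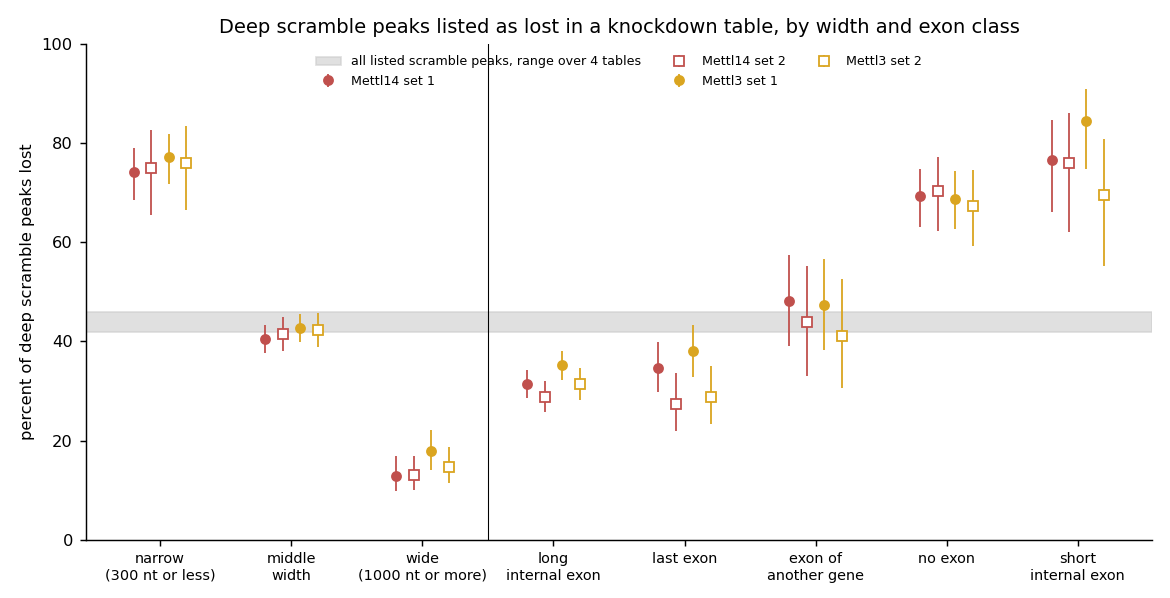
Percent of deep scramble peaks listed as lost (y axis) by width class and by exon class (x axis), one point per table with its 95% Wilson interval, and the grey band the share over all listed scramble peaks (41.9 to 45.9%). Narrow peaks and those in no exon or in short internal exons lie above the band in all 4 tables, and wide peaks and those in long internal or last exons below it.

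Regions in both scramble libraries with no knockdown peak of any kind numbered 103 (4.28% of all deep regions). This pattern was not counted among the other peaks with a gene. The median width of the 103 regions was 463 nt, 38.8% lay in a long internal exon and 27.2% in none. The 8 with the highest scramble enrichment were those of Eps8, Dok6, 6430550D23Rik, Zfp536, Fam46c (Tent5c), Trerf1, Fam185a and Lpar1, with calls of 117 to 324 nt on 8 to 24 tags, 5 of them in no exon. Lpar1, a receptor of lysophosphatidic acid, had 132 and 200.5 in scramble set 1 and set 2, in a coding exon of 748 nt (chr4:58486867-58487117) whose GGACT window is printed above. Zfp536, a zinc finger repressor of neuronal differentiation, had 162 and 223 in a coding exon of 2178 nt that holds no GGACT. Eps8, an actin regulator downstream of the EGF receptor, had 158 and 267 outside its exons.

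The reverse pattern, all 4 knockdown libraries and no deep scramble peak, had 11 regions (0.457%), and it too was not counted among the other peaks. Wnt5b, a secreted ligand, led with 236, 156, 202 and 59.2 outside its exons, on 9 to 19 tags. St6gal2, a sialyltransferase, had 129, 33.3, 74.2 and 18.6 in a coding exon of 990 nt, and Shisa6, a partner of glutamate receptors, 73.2, 67.0, 63.4 and 50.0 in a coding last exon of 551 nt. Bcl11a, a zinc finger repressor of fetal globin and a neural and lymphoid regulator, had 17.3, 28.2, 61.9 and 35.4 on 23 to 38 tags in a coding exon of 1743 nt (chr11:24163902-24164534). Kif26a, a kinesin-like protein, had 58.1, 26.1, 34.6 and 16.8, but here both scramble libraries had an overlapping call whose midpoint was not deep: calls of 2814 and 2900 nt with an enrichment of 20.1 and 20.7. The other 10 had no overlapping scramble peak at all.

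For shared peaks the tables give a fold of the scaled knockdown enrichment over the scramble enrichment, taken here as log2. The authors' deposited tables multiply knockdown enrichments by a constant of 0.906 and 0.777 in Mettl14 set 1 and set 2 and 1.00 and 0.609 in Mettl3 set 1 and set 2. The median log2 change of shared deep pairs was -0.05 (1146 pairs), -0.57 (855), 0.20 (1085) and -0.89 (852) in these tables, close to the medians over all shared pairs of -0.06, -0.59, 0.22 and -0.91. Without the constants the deep medians were 0.09, -0.21, 0.20 and -0.18. Values of -1 or lower were found in 116 deep pairs with Mettl14 in set 1 (10.1%, against 11.3% of all shared pairs), 209 in set 2 (24.4%, against 26.8%), 60 with Mettl3 in set 1 (5.53%, against 6.62%) and 356 in set 2 (41.8%, against 44.2%). Values of 1 or higher were found in 86 (7.50%, against 9.11%), 13 (1.52%, against 2.42%), 136 (12.5%, against 16.1%) and 9 (1.06%, against 1.11%). Every share was below that of all shared pairs, which include pairs with no gene. Among the other pairs with a gene, the shares at -1 or lower were 11.3, 27.8, 6.62 and 45.0%, all above the deep ones. Their shares at 1 or higher were 7.42, 1.67, 15.0 and 0.76%, below the deep ones in Mettl14 set 1 and Mettl3 set 2. For both knockdowns set 2 had more deep pairs at -1 or lower than set 1. Without the constants the deep shares at -1 or lower were 8.38, 11.5, 5.71 and 13.4%, in the same order. With the median of all shared pairs set to 0 they were 9.25, 8.65, 8.48 and 9.15%, so the order turned with Mettl14 and stayed with Mettl3. Setting the median to 0 removes any change common to a table, and what lies behind the order was not tested.

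The enrichments of a pair are read over calls of different width. Of the shared deep pairs 875 (76.4%), 583 (68.2%), 846 (78.0%) and 662 (77.7%) were narrower in the knockdown library than in scramble, with median widths of 589.5, 743, 607 and 692 nt in knockdown against 777, 877, 773 and 877 nt in scramble. Over all shared pairs, deep or not, 76.6, 71.4, 78.0 and 79.0% were narrower in knockdown. Among deep pairs with a log2 change of -1 or lower the knockdown call was the wider in 44.8, 37.3, 33.3 and 21.6%, against 22.9, 29.9, 21 and 21.2% of all shared deep pairs. With pairs that are not deep included, these values were 34.9, 33.0, 37.1 and 22.0% against 22.6, 27.0, 21.1 and 20.1%. The part of call width in these changes was not tested.

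Rin3, a guanine nucleotide exchange factor of early endosomes, was far below scramble in every table (chr12:102368582-102369832, exon 6 of 10, 1485 nt, coding). Its enrichment was 42.5 and 21.9 in the Mettl14 knockdown libraries of set 1 and set 2 and 13.3 and 26.2 in the Mettl3 knockdown libraries, against 201 and 108 in the scramble libraries, with log2 changes of -2.38, -2.67, -3.91 and -2.76. All 4 knockdown values lay below both scramble values, over calls of 308, 587, 545 and 655 nt in knockdown against 234 and 300 nt in scramble. Pogk, a nuclear protein derived from a transposase, had 20.6, 53.0, 53.8 and 22.1 against 98.8 and 194, again over wider calls (530 to 892 nt against 333 and 157 nt). Its log2 changes were -2.41, -2.23, -0.87 and -3.84. Egfr, the epidermal growth factor receptor, had 16.0, 22.0, 158 and 12.5 against 160.6 and 128 in the coding part of its last exon. With 158 the Mettl3 library of set 1 stood between the scramble values, while the other 3 were far below them.

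In Zhx2, Plcl2 and Fign the log2 changes were -0.31 to -0.56 in set 1 and -2.69 to -4.04 in set 2. Zhx2, a zinc finger and homeobox repressor, had 21.7, 15.8, 21.1 and 14.2 in knockdown libraries against 28.3 and 138 in scramble libraries, with log2 changes of -0.53, -3.49, -0.42 and -4.00. Its scramble value of set 2 stood far above all others. Plcl2, a catalytically inactive phospholipase C relative, had 42.2 and 27.6 with Mettl14 knockdown against 56.5 and 353, with -0.56 and -4.04, and was not shared with Mettl3. Fign, an AAA ATPase that severs microtubules, had -0.55, -4.04, -0.31 and -2.69. In scramble set 2 its call was split. The Mettl14 pair used a piece with an enrichment of 194 and the Mettl3 pair one with 80.4, so its 2 changes of set 2 have different references. Zfp608, a zinc finger regulator, had -0.14 and -3.84 with Mettl14 and -1.56 and -4.36 with Mettl3. Gpr98 (Adgrv1), an adhesion receptor of hair cells, had -0.47 in Mettl14 set 1 and -0.33 and -3.82 with Mettl3. Col27a1, a fibrillar collagen of cartilage, had -3.26 and -2.24 with Mettl14 and -2.86 in Mettl3 set 2, and Bcl2l11, which encodes the apoptosis activator Bim, had -1.57 in Mettl14 set 1 and -3.01 and -3.10 with Mettl3 in a region outside its exons.

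The highest mean changes were in the following regions. Tmem132d, a neural transmembrane protein, had 236, 104, 168 and 100 in knockdown libraries against 46.2 and 37.7 in scramble libraries, with all 4 above both (log2 changes of 2.21, 1.1, 1.87 and 0.69), over calls of 191 to 317 nt on 10 to 15 tags against 351 and 389 nt. Ndufs4, a subunit of respiratory complex I, had 87.9, 182, 152 and 211 against 42.7 and 87.2 in a region with no exon of the gene, and 0.90, 0.70, 1.84 and 0.56. In both genes the changes were positive in every table. Lrriq4 had 415 and 52.2 with Mettl3 against 25.7 and 15.8 (4.02 and 1.01) and 25.9 with Mettl14 in set 1 (-0.13). Zeb1, a factor of the epithelial to mesenchymal transition, had 1.47 in Mettl14 set 2 and 1.48 and 1.36 with Mettl3. Cux2, a homeobox factor, had 1.13 and 2.15 with Mettl14 and -1.51 and 0.83 with Mettl3, and Kctd1, a regulator of the transcription factor AP-2, 2.33 and 0.65 with Mettl14 and 4.56 and -0.61 with Mettl3.

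**Figure D5:**
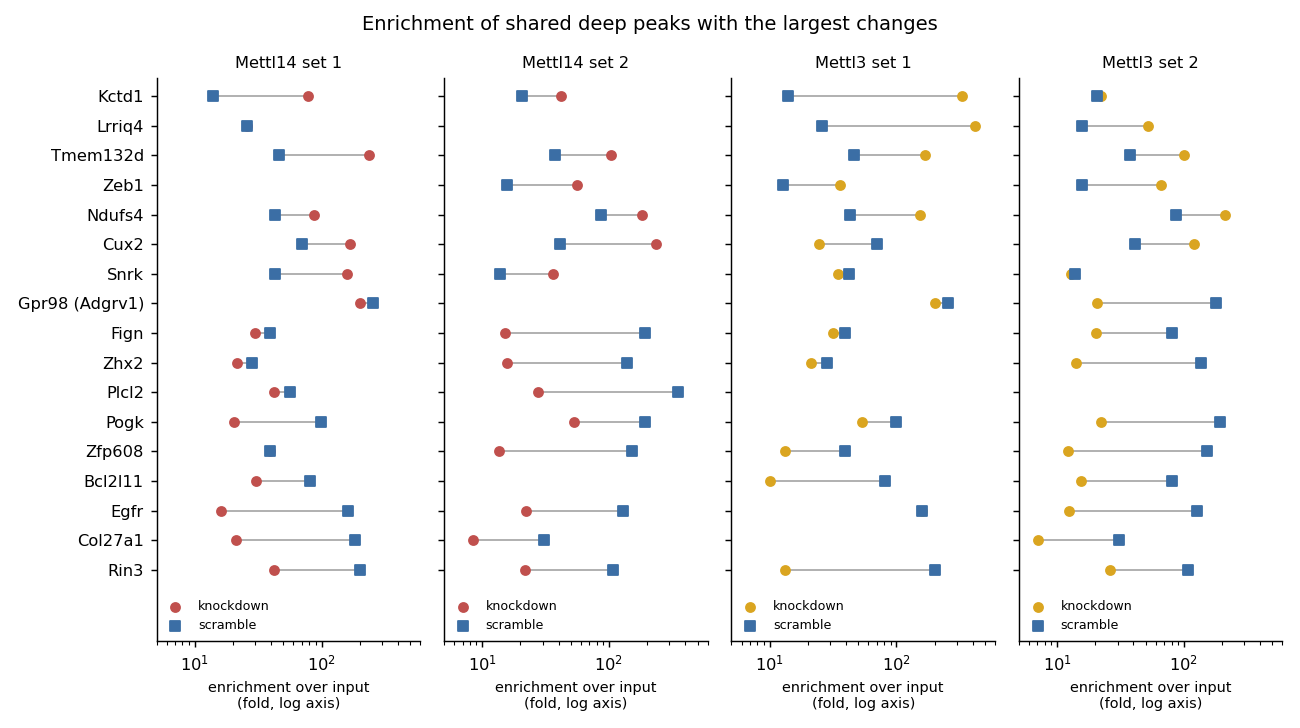
Enrichment over input (x axis, fold, log axis) of the shared deep pairs with the largest changes, before the authors' scaling constant, one row per gene and one panel per table, knockdown as circles and scramble as squares joined by a line. Rin3 has its knockdown circle below its scramble square in all 4 panels and Tmem132d above it, while Zhx2 has a long line in the set 2 panels only.

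Deep peaks held GGACT about as often as the other peaks. Among peaks with at least 50% of their bases in exons of annotated transcripts, 63.4, 66.5, 65.7 and 65.4% of deep peaks had a match on the RNA strand in knockdown libraries and 64.5 and 67.9% in scramble libraries, against 63.3, 64.7, 64.3 and 65.5% and 65.5 and 68.4% of the other peaks with a gene. Per kb the deep peaks had 1.67, 1.55, 1.69 and 1.58 matches against 1.56 and 1.53, below the 1.85, 1.73, 1.84 and 1.78 against 1.75 and 1.67 of the other peaks with a gene in every library. The share followed width: 85.8, 82.1, 84.0 and 83.5% of wide deep peaks held a match against 82.8 and 82.4% in scramble, and 45.1, 36.7, 46.9 and 40.0% of narrow ones against 42.3 and 48.3%. In windows of 151 nt around the summits in long internal exons, 32.8, 29.1, 31.3 and 27.9% held GGACT in knockdown libraries and 29.9 and 28.6% in scramble libraries, whereas 18.8% of consecutive windows of the same length along long internal exons with a scramble peak did (1078 of 5736). In long internal exons of the same kind with no deep peak it was 12.6% (397 of 3147). The 403 exons with a region in all 6 libraries had 1.49 GGACT per kb and 54.3% GC, and the 681 with none 0.943 per kb and 52.5% GC, with median lengths of 1110 and 555 nt. Summit windows of the scramble libraries come from lost peaks, the only ones with listed summits. The GGACT shares are descriptions of letters and were not tested.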

How the data were processed

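Build mm10 and these tools are named in the submitters' processing notes: Picard 1.74, SAMtools 0.1.18, TopHat2 2.0.6, Bowtie 0.12.7, cutadapt 1.1 and CASAVA 1.8.2. Versions of the peak caller and the gene annotation are not stated there. Peaks carry MACS names, and per the file headers each has a tag count, a fold enrichment (the ratio of IP over input), an FDR in percent (at most 9.99) and a score, the caller's p-value as -10 times its log10. The authors also deposited a scaled enrichment and a signed fold score of knockdown over scramble for shared peaks, which was turned into log2. All of these values are the authors' own. Scramble enrichments of shared peaks were solved from that score. Peaks were deduplicated by coordinates within a table, and a scramble library shared by both tables of a set was counted once.

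Listed peaks held 4 to 2151 tags. The depth of the libraries is unknown, and Wilson intervals (95%) cover counting error only. Exons and coding sequence came from the basic annotation of GENCODE M21 on the same build, and sequences from its transcripts. Motifs were read from those transcripts, so intronic bases have none. Libraries were compared with exact permutation tests (SciPy 1.17.1, pandas 2.3.3, NumPy 2.4.6, matplotlib 3.10.9, Python 3.11.15), and the scripts were tested on simulated data.

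Named regions were the 10 most enriched and the 5 narrowest of those in all 6 libraries, the 8 widest and the 5 genes with most regions in both scramble libraries, ties kept, the 6 lowest and 4 highest mean log2 changes of the same sign in both sets for each knockdown, the 8 most enriched in scramble alone and the 5 in knockdown alone. With several calls in a region, a library is given by its widest call, and a log2 change by the pair with most knockdown tags (for the regions with the largest changes, enrichment and width are those of that pair), since scramble tags are listed for 611 of 3938 shared deep pairs. The members and the gene lists were chosen with earlier results of these data known.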

Additional observations from a re-analysis of the deposited data

Results flagged for a closer look

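The region of Snrk, a kinase of the AMPK family (chr9:122136922-122137480, a coding internal exon of 696 nt), had log2 changes of opposite sign with the 2 knockdowns. Its enrichment was 159 and 36.4 in the Mettl14 knockdown libraries of set 1 and set 2 and 34.6 and 13.0 in the Mettl3 knockdown libraries, against 42.6 and 13.8 in the scramble libraries. The log2 changes were 1.76 and 1.03 with Mettl14 and -0.29 and -0.81 with Mettl3, and the mean with Mettl3 minus that with Mettl14 was -1.95. Before the authors' constant the log2 changes were 1.90 and 1.40 with Mettl14 and -0.30 and -0.09 with Mettl3, and with the median of all shared pairs set to 0 the Mettl3 change of set 2 was 0.11, so the sign there turned. Calls were 472, 474, 472 and 397 nt wide in the knockdown libraries on 58 to 67 tags, against 548 and 527 nt in scramble. Both knockdowns of a set are set against the same scramble library, and the difference was not tested.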

How the results depend on the processing

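Of 124 values under alternatives, 75 kept their direction and stayed within the spread allowed, 42 moved and 7 changed sign. The knockdown minus scramble difference in the share of deep peaks (0.631 percentage points) was -0.101 with peaks at an FDR of 5% or less (exact permutation p = 1.00) and ran from -0.541 to 1.8 when 1 set was left out. With the replicate block, exchanging libraries within a set only (9 arrangements), the 3 differences between libraries kept their values by construction, with exact p of 1.00 for the share, 0.111 for width, the smallest that 9 arrangements allow, and 0.222 for enrichment.

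In the order Mettl14 set 1, Mettl14 set 2, Mettl3 set 1 and Mettl3 set 2, the percent of deep scramble peaks lost was 30.6, 26.7, 33.0 and 26.9 at an FDR of 5% or less, 34.8, 31.0, 38.5 and 32.8 with only peaks in an exon of their own gene (an alternative chosen after seeing the data), and 46.9, 41.0, 48.5 and 42.9 where sharing needed an overlap of at least 50% of the peak. An FDR is listed only for scramble peaks that are lost in some table. The stricter FDR could therefore remove only such peaks, so the lower percent lost there is in part set by the filter. The percent of scramble peaks in a long internal exon at this FDR has the same limit. The percent new was 9.79, 22.4, 8.65 and 17.0 at the stricter FDR, and 12.6 in Mettl14 set 1 and 21.2 in Mettl3 set 2 with own exons only. A distance of 10000 nt moved neither.

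Without the authors' scaling constant the median log2 change was 0.092 in Mettl14 set 1, -0.21 in Mettl14 set 2 and -0.18 in Mettl3 set 2. With the median of all shared pairs set to 0 it was 0.0124, 0.0241, -0.0192 and 0.0187, near 0 by construction, since every pair moves alike, and with 95% intervals that span 0, so these 4 of the 7 changes of sign carry no information. At the stricter FDR it was -0.84 in Mettl3 set 2. The percent at -1 or lower without the constant was 8.38 in Mettl14 set 1, 11.5 in Mettl14 set 2 and 13.4 in Mettl3 set 2. With the median at 0 it was 9.25, 8.65, 8.48 and 9.15 in the 4 tables, and at the stricter FDR 38.0 in Mettl3 set 2. The percent at 1 or higher was 9.42 in Mettl14 set 1 and 2.82 in Mettl3 set 2 without the constant, and 7.94, 4.68, 9.22 and 4.69 in the 4 tables with the median at 0.

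The percent of deep scramble peaks in a long internal exon was 63.7 and 67.1 in set 1 and set 2 at 10000 nt, 59.9 in set 1 at the stricter FDR, 71.0 and 73.4 with own exons only and 28.4 and 30.6 for exons of 1000 nt or more. DRACH was found in 99.9 and 99.8% of deep scramble peaks in place of GGACT. Depth per library is unknown, and tags of 14 to 19 per narrow peak limit what a ratio there can show. Where an alternative leaves out peaks, its values are over fewer peaks, and why any value moved was not tested.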
